A study of Mus musculus with 15 samples.

Results

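The 3 tumors taken from the antrum of the mouse stomach were compared with the 9 tumors taken from the other 3 sites of the same study. They were the libraries whose label places the tumor in the antrum, 3 of 12 tumors and 3 of 15 samples in all. The other sites were the boundary regions at the greater and at the lesser curvature of the cardia, and the corpus, with 3 tumors each. Every sample, the 3 normal tissues included, carries 1 genotype label on the C57BL/6 background: Pou2f3-CreERT, Rb1fl/fl, Trp53fl/fl and LSL-MycT58A. Mice labelled as 7 to 8 weeks old received tamoxifen at 50 mg/kg by intraperitoneal injection on a single day, and the time label is 5 weeks after induction. The Cre is expressed from Pou2f3, a factor of tuft cells (chemosensory cells of the gut lining), so recombination is limited to cells that use that gene at induction. The alleles are built so that recombination removes both tumor suppressors and switches on a degradation-resistant Myc. The labels do not name the stomach region of the normal tissue, and the comparison was fitted on the 12 tumors alone. Labels call the replicates biological without saying whether they came from separate animals, so each p-value reflects the spread between samples only, which may be technical. A tumor sample in bulk also holds the tissue around it, and fewer cells of a type cannot be told apart from less RNA per cell.

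The antrum is the distal part of the stomach, next to the duodenum. Its glands hold G cells, which secrete gastrin, and mucous cells, but few of the acid-making parietal cells and pepsinogen-making chief cells that fill the corpus. Pdx1 and Nkx6-3 are homeobox factors of antral glands, and Nkx6-3 is needed for G cells. In the mouse the proximal stomach is lined by squamous epithelium, which meets the glandular stomach close to the cardia. The series title concerns mixed neuroendocrine and non-neuroendocrine neoplasms, tumors in which hormone-secreting cells grow beside gland cells, and the chemokine CXCL5. What site of origin adds to such tumors was the question put to these libraries.

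No gene passed the threshold between the antrum tumors and the mean of the other 3 sites, each site weighted equally. With edgeR's quasi-likelihood test, 0 of 16042 genes were higher (0%) and 0 were lower (0%) at an adjusted p under 0.05, and the smallest adjusted p was 0.205. At an unadjusted p under 0.05, 233 genes were higher (1.45%) and 178 were lower (1.11%). Together they were 2.56% of genes, less than the share of 0.05 that this threshold would pass on average if no gene differed. In all, 8044 genes (50.1%) had a positive log2 fold change. DESeq2, run as an alternative on the same counts, called 22 genes higher (0.123% of 17898) and 13 lower (0.0726%). By limma on log2(TPM + 1), 0 were higher and 1 was lower, the squamous calcium-binding gene Calm4. All 3 antrum tumors lay above all 9 others in 37 genes (0.231%) and below all 9 in 23 genes (0.143%). How many genes would separate in this way under shuffled labels was not tested. Of the 22 genes that DESeq2 called higher, 15 were among those 37, which is 68.2% of the first list and 40.5% of the second. Of the 13 it called lower, 4 were among the 23, or 30.8% and 17.4%. All these lists come from the same libraries, so the genes they share are not separate support for either. Some genes named below were chosen because their groups did not overlap, so their lack of overlap is not a separate result. In what follows a value is a count scaled to a fixed total per library (CPM, counts per 1e+06), a fold change is log2 from edgeR with its standard error (SE), and a gene is described as having higher or lower values without being called unless DESeq2 is named.

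The antrum tumors were not alike. Across genes, which are not independent replicates, antrum 2 and antrum 3 correlated at r = 0.955 in log2 CPM, while antrum 1 correlated with them at 0.822 and 0.847. Antrum 1 was most like greater curvature 1 (r = 0.932), antrum 2 was most like corpus 2 (0.965), and antrum 3 was most like antrum 2. Both curvatures were mixed as well. Greater curvature 2 correlated with its own site at 0.848 and 0.851 and was most like corpus 1 (0.954). Lesser curvature 1 and 2 correlated at 0.836, while the corpus tumors correlated among themselves at 0.938 to 0.971. On the first principal component of the 12 tumors, which held 51% of the variance, antrum 1 lay at -121 and antrum 2 and 3 at 65.3 and 24.8, where all tumors spanned -143 to 112. Epcam, a surface protein of epithelial cells, had 12 CPM in antrum 1 against 321 and 279 in antrum 2 and 3. Krt8, a keratin of simple epithelium, had 106, 3465 and 2884 CPM. Over the 13 general epithelial markers, the summed level was 275, 9541 and 8290 CPM in antrum 1, 2 and 3, and 317 to 12390 CPM in the other 9 tumors, of which lesser curvature 1 was lowest. Total counts ran from 14307391 to 17213283 in the antrum tumors and from 7957165 to 21564972 in the others, so 1 count stood for 0.0518 to 0.12 CPM. The median SD between replicates of log2 CPM was 0.472 in the antrum, 0.514 at the greater curvature, 0.367 at the lesser curvature and 0.343 in the corpus.

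**Figure D1:**
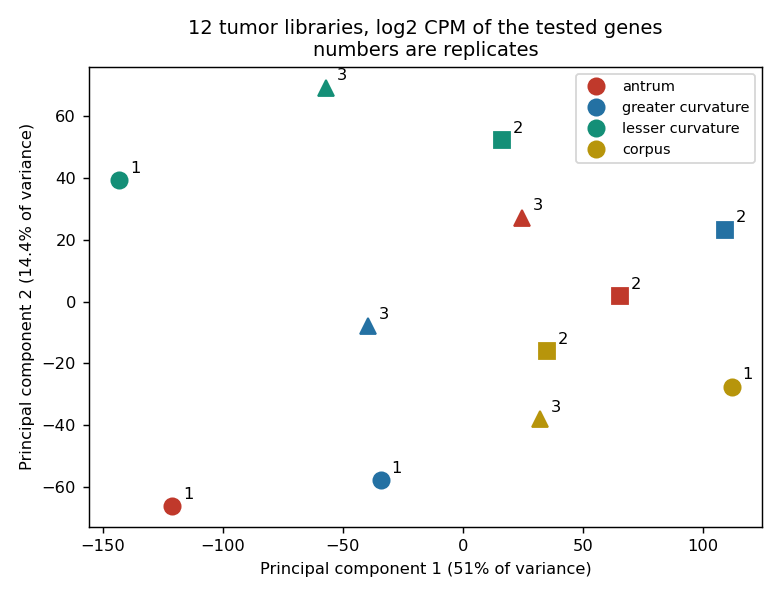
First and second principal components of log2 CPM for the 12 tumor libraries, colored by site, with replicate numbers beside the points. The antrum tumors do not form a group of their own: antrum 1 lies at -121 on the first component and antrum 2 at 65.3.

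The engineered genes and the genes of the series title did not set the antrum apart. Myc had 506, 171 and 364 CPM in antrum 1, 2 and 3 and 101 to 831 CPM at the other sites (log2 fold change 0.31, SE 0.51), and the sources do not say whether transcripts of the engineered Myc counted toward it. Rb1 (-0.21, SE 0.21) and Trp53 (-0.24, SE 0.30) overlapped between the groups, and since the counts are for whole genes, retained exons included, they do not check recombination. Pou2f3 itself was scarce, at 0.131, 1.03 and 1.04 CPM in the antrum and 0.16 to 2.85 CPM elsewhere. Cxcl5, a chemokine that draws neutrophils, had 0.59, 6.82 and 21.5 CPM in the antrum tumors. The other sites had 14.8, 93.2 and 19.6 CPM at the greater curvature, 8.21, 38.8 and 15.9 at the lesser curvature, and 6.28, 23.1 and 8.07 in the corpus. These ranges overlapped (log2 fold change -1.21, SE 0.97, edgeR adjusted p = 1). The log2 fold change of Cxcl5 was -0.65, -1.01 and -2.59 without antrum 1, 2 and 3 (edgeR unadjusted p = 0.475, 0.419 and 0.0571). Its receptor Cxcr2 had 0.852, 0.669 and 2.42 CPM against 0.67 to 5.59 CPM (-0.57, SE 0.51). For Cxcr2 the log2 fold change was -0.34 without antrum 1 and -0.25 without antrum 2. Without antrum 3 it was -1.36 (edgeR unadjusted p = 0.0349, adjusted p = 1). Of 8 tested CXCR2 ligands and receptors 6 had negative fold changes, with a median of -0.50 beside 0.00053 for all genes, and none reached an unadjusted p under 0.05 in either direction. Against the corpus alone the median of this list was 0.35. Against all sites it was -0.14, 0.0044 and -2.40 without antrum 1, 2 and 3.

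Shox2 (chromosome 3, 66971727 to 66981771, GRCm38), a homeobox factor of limb and heart pacemaker development, had the smallest p of all genes. It had 28.6, 7.97 and 24.3 CPM in the antrum tumors. At the greater curvature it had 0, 0.106 and 0.398 CPM, at the lesser curvature 0.747, 3.95 and 1.19, and in the corpus 2.85, 3.8 and 3.26. Every antrum tumor, with 131 to 436 counts, stood above every other tumor, and above the normals, which had 1.37, 0 and 0.162 CPM. The log2 fold change was 4.27 (SE 0.60, unadjusted p = 3.5e-05), with an adjusted p of 0.205 by edgeR and 1.23e-08 by DESeq2. It was 6.80 against the greater curvature, 3.41 against the lesser curvature and 2.61 against the corpus, and 3.95 without antrum 1.

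Pnoc (chromosome 14, 65400673 to 65425472) encodes the precursor of nociceptin, a neuropeptide. It had 4.19, 17 and 160 CPM in the antrum tumors, against a lowest of 0.106, a median of 0.599 and a highest of 2.49 CPM in the other 9. The antrum values did not overlap the others but differed widely among themselves. Against the mean of the other sites this is 6.34 on the log2 scale (SE 0.91), with an adjusted p of 0.205 by edgeR and 2.16e-08 by DESeq2. Without antrum 3 it was 3.83, and without antrum 1 it was 6.88 with an edgeR adjusted p of 0.0486.

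Irx2 (chromosome 13, 72628820 to 72634198), an Iroquois homeobox factor of regional patterning, was the clearest gene in the other direction. The antrum tumors had 5.7, 7.42 and 10.2 CPM. The greater curvature tumors had 36.5, 35.6 and 60.4 CPM, the lesser curvature tumors 26.4, 35.9 and 31.6, and the corpus tumors 16.9, 29.4 and 31.5. All antrum tumors were below all 9 others and inside the range of the normals (9.24, 17.1 and 1.86 CPM). Its log2 fold change was -2.08 (SE 0.30), with an adjusted p of 0.205 by edgeR and 2.72e-09 by DESeq2, and the size was alike against the greater curvature (-2.50), lesser curvature (-2.01) and corpus (-1.74). Irx5, of the same family, had 14.2, 1.16 and 1.21 CPM in the antrum and 10.4 to 31.1 CPM elsewhere. Antrum 2 and 3 were thus far below the other sites and antrum 1 was not, and the log2 fold change of -2.05 (SE 0.77) became -4.26 without antrum 1 (edgeR adjusted p = 0.0486). Irx3 had 54.6, 8.58 and 1.56 CPM in the antrum and 10.6 to 31.9 CPM elsewhere. Antrum 2 and 3 again lay below all 9 others, but antrum 1 lay above them, and the log2 fold change was 0.12. Of the 35 tested foregut and region transcription factors, 1 was higher and 2 were lower at an unadjusted p under 0.05, beside 1.45% and 1.11% of all genes. The median of this list was 0.11. Gata4, Foxa2, Barx1 and Sox2, factors of the whole stomach or its mesenchyme, had fold changes between -0.21 and 0.20.

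**Figure D2:**
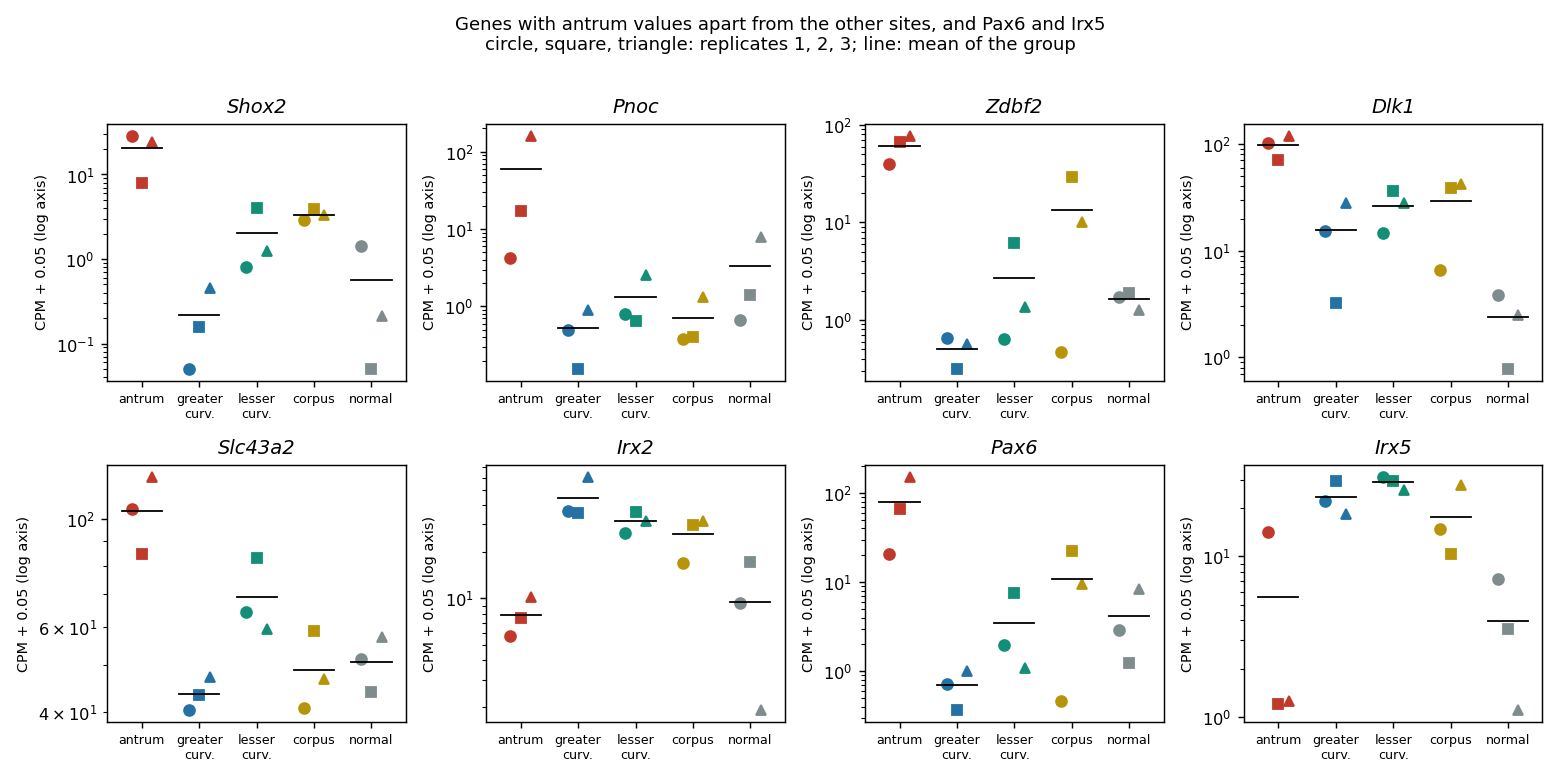
Level of 8 genes in each of the 15 libraries, in CPM plus 0.05 on a log axis, by group, with 1 point per library and a line at the mean of the group. In Shox2, Pnoc, Zdbf2, Dlk1 and Slc43a2 the 3 antrum tumors lie above the 9 other tumors and in Irx2 below them, while Pax6 and Irx5 overlap through 1 library each.

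Zdbf2 (chromosome 1, 63273265 to 63314576), an imprinted zinc finger gene, had 40.1, 66.3 and 77.3 CPM in the antrum tumors. At the other sites it was at or under 1.29 CPM in 6 of 9 tumors, and at 6.11 in lesser curvature 2, 29.3 in corpus 2 and 10.1 in corpus 3. This gave a log2 fold change of 4.61 (SE 0.83), with an adjusted p of 0.323 by edgeR and 0.00017 by DESeq2. Dlk1, an imprinted membrane protein of the Notch ligand family made by precursor and endocrine cells, had 101, 70.5 and 119 CPM against 3.17 to 41.9 CPM with a median of 27.8. It did not overlap either (2.09, SE 0.58), and its DESeq2 adjusted p was 0.14. Plagl1, another imprinted zinc finger gene, had 76.6, 75.2 and 78.2 CPM against 29.8 to 74.6 CPM (0.66, SE 0.16, DESeq2 adjusted p = 0.0409). The gap between the lowest antrum tumor and lesser curvature 2 was small there. Slc43a2, a carrier of neutral amino acids, had 105, 84.5 and 122 CPM against 40.3 to 83.2 CPM (0.98, SE 0.16, adjusted p = 0.275 by edgeR and 1.34e-05 by DESeq2). Whrn, a scaffold protein known from hair cells of the ear, had 37.8, 23 and 34.2 CPM against 4.8 to 22.5 CPM (1.49, SE 0.36). Among the 6 genes named as lower in every antrum tumor, which had a mean of at least 10 CPM on their higher side, the differences were small outside Irx2 and the squamous gene Flg. Less abundant genes below all other sites had larger ones, such as the tight junction gene Cldn8, chosen after its values were seen, with 0.131, 0.304 and 0.288 CPM against 0.739 to 5.44 CPM (-2.83, SE 0.62, DESeq2 adjusted p = 0.0151). Ptp4a1, a phosphatase linked to growth, had 135, 160 and 151 CPM against 162 to 221 CPM (-0.38, SE 0.13). Dusp12, a phosphatase of the dual-specificity family (-0.44), Lrrc42 (-0.32) and Ttc33 (-0.26) likewise did not overlap, with edgeR adjusted p-values of 1.

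Markers of the antrum were next read to check the labels. Gast (chromosome 11, 100334407 to 100336996), the gastrin of G cells, had 0, 86.9 and 18.5 CPM in antrum 1, 2 and 3. It was at 0 counts in all 3 greater curvature tumors, had 1, 0 and 0 counts at the lesser curvature and 2, 41 and 0 counts in the corpus. A count of 0 in antrum 1 allows up to 0.197 CPM (3 counts). The mean of the antrum tumors was at least 585-fold higher than at the greater curvature, taking 3 counts over that group. Nkx6-3 (chromosome 8, 23153269 to 23158948) had 4.13, 66.5 and 59.5 CPM in the antrum tumors and 18.8, 5.44 and 0 CPM in the corpus, and no count in any of the 6 tumors of the curvatures. The antrum mean was at least 722-fold and 671-fold higher than those of the greater and lesser curvature on the same bound. Pdx1 (chromosome 5, 147269959 to 147275848) had 2.49, 23.8 and 19.6 CPM in the antrum, 10.6, 8.6 and 2.23 CPM in the corpus, and at most 1.21 CPM at the curvatures. Its log2 fold change was 3.46 (SE 0.72, adjusted p = 0.802 by edgeR and 0.0113 by DESeq2), made of 4.45 against the greater curvature, 4.83 against the lesser curvature and 1.10 against the corpus.

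Nkx6-3 and Pdx1 were therefore present in all 3 tumors labelled antrum, while gastrin was present in 2 of them. Corpus 1 and 2 had both Nkx6-3 and Pdx1 at higher levels than antrum 1. These markers thus do not set antrum 1 apart from the corpus tumors. Antrum 1, the antrum library with the lowest levels of all 3 markers, also had the lowest summed epithelial level of the antrum tumors given above. The part of that in the marker levels was not tested. Without antrum 1 the log2 fold change of Pdx1 was 3.97 (edgeR adjusted p = 0.253). The normals varied as much, with Gast at 0, 38.8 and 640 CPM and Nkx6-3 at 0.229, 57.6 and 126 CPM, so the antral markers differ between normal libraries too. Of the 8 antral gland genes listed, 3 reached an unadjusted p under 0.05 on the higher side, which were Gast, Nkx6-3 and Pdx1, and 0 on the lower side, beside 1.45% and 1.11% of all genes. Their median was 0.61. The other 5 were between -1.40 for Sst, the somatostatin of D cells, and 0.68 for the water channel Aqp5. At the same threshold 3 of the 8 were higher and 0 lower against each curvature. Against the corpus 1 was higher and 2 were lower, beside 2.13% and 1.42% of all genes. The summed level of the list was 51.2, 275 and 175 CPM in the antrum tumors and 212, 664 and 308 CPM in the corpus.

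Cybrd1, the iron reductase of the duodenal brush border, followed the same order of sites. It had 3.8, 329 and 321 CPM in the antrum tumors, 113, 58.1 and 14.6 CPM in the corpus, and 2.67 to 12.6 CPM at the curvatures. Antrum 2 and 3 were above every other tumor and antrum 1 was among the lowest. Its difference was 3.98 on the log2 scale (SE 0.84, DESeq2 adjusted p = 0.00633), and without antrum 1 it was 4.56 with an edgeR adjusted p of 0.0486. Gkn3, a gastrokine of mucous cells, had 30.4, 426 and 416 CPM against 2.35 to 163 CPM (2.40, SE 0.91), again with antrum 1 apart. Of 16 tested pit and neck mucous cell genes it was the 1 with an unadjusted p under 0.05, beside 1.45% of all genes. The median of that list was 0.43. It was 0.27, 1.54 and -0.61 against the greater curvature, lesser curvature and corpus, and -0.21 against all sites without antrum 2. Of 23 tested intestinal genes 4 were higher at an unadjusted p under 0.05, beside 1.45% of all genes. They were the enzyme Alpi and the goblet cell products Zg16, Fcgbp and Clca1. Zg16 had 8.06, 52.4 and 34.8 CPM in the antrum tumors and at most 1.14 CPM in 8 of the other 9, with 17.8 in greater curvature 1 (4.65, SE 1.02, DESeq2 adjusted p = 0.013). Fcgbp had 1.11, 711 and 92.7 CPM against 0.32 to 96.1 CPM, so that 1 tumor carried most of the difference, and without antrum 2 its log2 fold change went from 3.44 to 0.92. The median of the intestinal list was -0.25, and the intestinal factors Cdx1 and Cdx2 were at or near 0 in the antrum tumors.

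**Figure D3:**
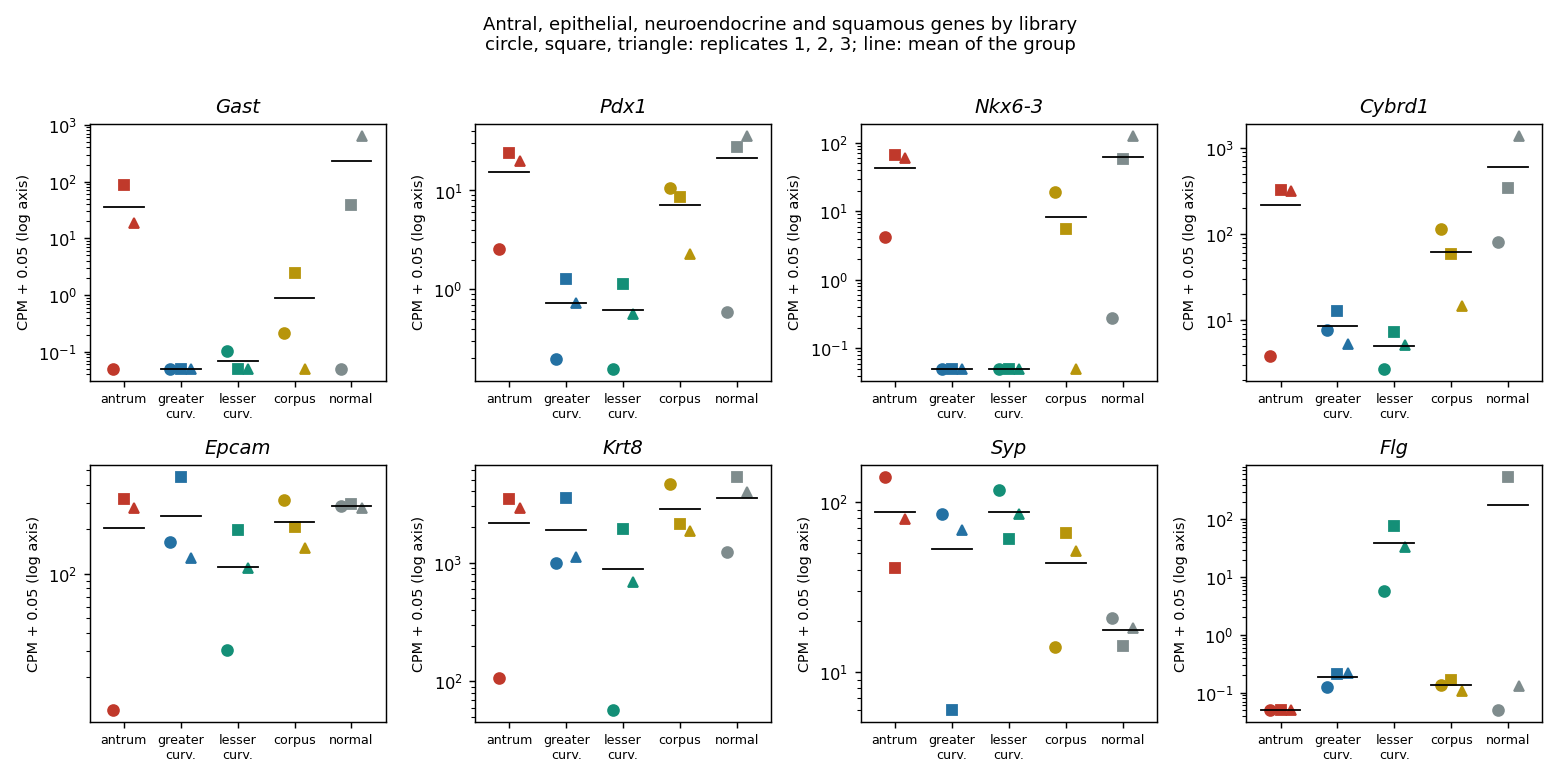
Antral (Gast, Pdx1, Nkx6-3), duodenal (Cybrd1), epithelial (Epcam, Krt8), neuroendocrine (Syp) and squamous (Flg) genes in each library, in CPM plus 0.05 on a log axis, with 1 point per library and a line at the mean of the group. Antrum 1 (circle) is low in the epithelial genes and has the lowest antral markers of its group, and Flg is seen at more than 1 CPM only in the lesser curvature tumors and 1 normal.

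Neuroendocrine genes in general were shared by all sites, and a few of their regulators had higher values in the antrum. Syp, a synaptic vesicle protein, had 140, 40.9 and 79.8 CPM against 5.91 to 118 CPM (0.57, SE 0.66). Chga, a granule protein, had 3628, 335 and 433 CPM against 194 to 5329 CPM, with a log2 fold change of 0.02 that changed sign under 11 of 22 other settings. Neurod1, a factor of enteroendocrine cells, had 84.7, 43.4 and 50.6 CPM against 0.581 to 99 CPM (0.98, SE 0.91). Onecut2, a factor of cell identity (-0.04), and Dclk1, a kinase of tuft cells (0.29), also overlapped.

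Pax6 (chromosome 2, 105668900 to 105697364), a factor required for several endocrine cell types of pancreas and gut, had 20.7, 65.7 and 151 CPM in the antrum tumors. The other sites had 0.317 to 0.966 CPM at the greater curvature, 1.04 to 7.42 at the lesser curvature and 0.418, 22.2 and 9.44 in the corpus. Only corpus 2 exceeded any antrum tumor. The log2 fold change was 4.79 (SE 0.85), with an adjusted p of 0.323 by edgeR and 0.000128 by DESeq2, and it was 3.91 to 5.24 when any 1 tumor was left out. Nkx6-1, a factor of pancreatic beta cells, had 2.69, 1.58 and 6.75 CPM against 0.207 to 1.08 CPM (2.90, SE 0.48, DESeq2 adjusted p = 0.000215). This gene was chosen after its values were seen. Scrt2, a repressor of neural lineages, had 4.06, 1.03 and 3.35 CPM (2.07, SE 0.71) and overlapped the other sites.

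Of 28 tested neuroendocrine transcription factors 6 were higher at an unadjusted p under 0.05 and 0 were lower, beside 1.45% and 1.11% of all genes, and 20 had positive fold changes with a median of 0.52. By site the median was 0.72 against the greater curvature, -0.19 against the lesser curvature and 1.46 against the corpus. The list as a whole was thus not higher than at the lesser curvature. DESeq2 called 1 member higher, Pax6, beside 0.123% of all genes it tested. Among 37 secretory genes the median was 0.26 and 1 gene, the prohormone convertase Pcsk2, was higher at an unadjusted p under 0.05. The median of this list was -0.06 against the lesser curvature and -0.09 without antrum 1. Pcsk2 had 51.9, 80.1 and 67 CPM against 2.96 to 69.8 CPM (1.88, SE 0.51), and its values in lesser curvature 2 and corpus 2 lay within the antrum range. L1cam, an adhesion molecule of neurons, had 8.78, 31.5 and 41.3 CPM against 5.9 to 20.9 CPM (1.23, SE 0.46). It was the 1 gene of 30 tested neuron-like cytoskeleton and RNA-binding genes with an unadjusted p under 0.05, beside 1.45% of all genes. The median of that list was 0.35, but -0.31 against the lesser curvature and -0.32 without antrum 1. Several further genes of nerve cells, named after their values were seen, were low in amount and separated the groups. Drd2, the dopamine D2 receptor, had 2.95, 5.48 and 10.2 CPM against 0 to 1.08 CPM (4.61, SE 0.82, DESeq2 adjusted p = 0.000125). Cacng2, an accessory subunit of AMPA receptors, had 2.29, 3.1 and 8.88 CPM against 0.422 to 1.27 CPM (2.61, SE 0.42, DESeq2 adjusted p = 0.000128). Markers of enteric neurons and glia were not apart as a list (median 0.05 over 13 genes, 0 at an unadjusted p under 0.05 in either direction).

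Hormone genes were read as a group. Of 15 tested hormone and peptide genes 3 were higher at an unadjusted p under 0.05 and 0 were lower, beside 1.45% and 1.11% of all genes, and the median was 1.25. The 3 were Gast, Pyy and Sct. Pyy, peptide YY of L cells, had 0, 8.22 and 8.65 CPM in the antrum and at most 5.86 CPM elsewhere, in corpus 1 (3.85, SE 1.08). Sct, secretin of S cells, had 0.655, 12.1 and 4.5 CPM against 0 to 5.56 CPM (2.84, SE 0.99). Antrum 1 was the lowest antrum tumor for all 3. Sst had 10.3, 48.6 and 14.8 CPM against 139, 603 and 268 CPM in the corpus, a log2 difference of -3.78 in a comparison whose smallest edgeR adjusted p was 0.953, and 0.373 to 85.8 CPM at the curvatures. Ghrl, the ghrelin of X/A cells, had 9.44, 196 and 122 CPM and overlapped all sites (-0.32).

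Squamous genes made the largest group difference, and it lay mostly on the side of the lesser curvature. Flg, the filaggrin of keratinizing cells, had 0 counts in all 3 antrum tumors, 7 counts over the greater curvature tumors and 4 over the corpus tumors, and 5.71, 76.5 and 33.6 CPM at the lesser curvature. The antrum was at least 631-fold lower than the lesser curvature mean, taking 3 counts over the antrum group. Lor, loricrin of the same cells, had 0.0655 to 0.122 CPM in the antrum, 0.0568 to 0.211 at the greater curvature, 15.6 to 168 at the lesser curvature and 0.0837 to 1.17 in the corpus. Krt1, a keratin of the upper epidermis, had at most 0.791 CPM in the antrum and 1.52 CPM at the greater curvature and corpus, and 38.6, 832 and 189 CPM at the lesser curvature. Of 25 tested squamous genes 14 were lower at an unadjusted p under 0.05 and 0 were higher, beside 1.11% and 1.45% of all genes. The median was -3.42, or -2.48 when the genes with a group at 0 are set at a floor of 3 counts. DESeq2 called 5 of them lower, beside 0.0726% of all genes. Against the lesser curvature alone 21 of 25 were lower at an unadjusted p under 0.05 (median -6.82, beside 2.46% of all genes), against the greater curvature 2 (median -1.12, 1.14%) and against the corpus 1 (median -0.97, 1.42%). In summed level the squamous list stood at 36.1, 824 and 953 CPM in antrum 1, 2 and 3, 307 to 1363 CPM at the greater curvature, 757 to 5391 at the lesser curvature and 544 to 1293 in the corpus. The sums of antrum 2 and 3 came mainly from Sprr2a1 (675 and 777 CPM) and Sprr1a (96.7 and 101 CPM), genes of the cornified envelope that glandular epithelium can also use.

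Hmx2 and Hmx3, homeobox genes on the tuft cell list, also had lower values in the antrum than at the lesser curvature. By DESeq2 their log2 fold changes against that site were -3.86 and -5.39 (adjusted p = 0.000114 and 1.37e-06). Against all other sites that of Hmx2 was -2.16 by edgeR. Hmx3 had 0.131, 0.0609 and 0.173 CPM in the antrum, 4.14 to 7.18 CPM at the lesser curvature, and 0.167 to 1.54 CPM in the greater curvature and corpus tumors (-3.28, SE 0.76, DESeq2 adjusted p = 0.0282). Among the 21 tested tuft cell genes Hmx2 and Hmx3 were the 2 with an unadjusted p under 0.05. Both were lower, beside 1.11% of all genes, and the list median was -0.06.

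**Figure D4:**
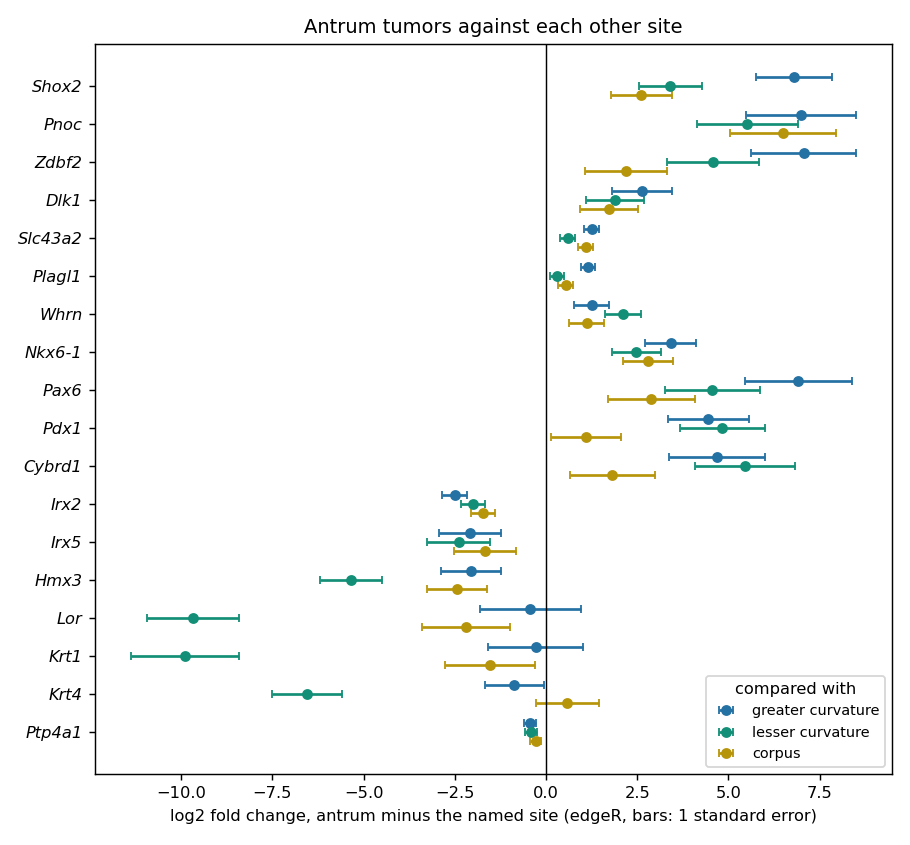
Log2 fold change of the antrum tumors against each of the other 3 sites for 18 genes, with bars of 1 SE from edgeR. Irx2 lies near -2 against every site and Pnoc near 6, while Lor, Krt1 and Krt4 differ mainly from the lesser curvature and Pdx1 and Cybrd1 least from the corpus.

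Hox genes, which mark position along the body axis, were low in all tumors. Of 39 listed, 14 had enough counts to be tested. Of these 13 had negative fold changes in the antrum, with a median of -0.59, and 3 were lower at an unadjusted p under 0.05, beside 1.11% of all genes. Of all genes 50.1% had a positive fold change. Hoxa5 had 0.721, 0.304 and 0.231 CPM against 0.693 to 2.22 CPM (-1.52, SE 0.48). Hoxc4 had 0.115 to 0.243 CPM against 0.114 to 3.47 CPM (-2.10, SE 0.75), and Hoxb6 had 0.115 to 0.365 CPM against 0.341 to 0.971 CPM (-1.26, SE 0.48). The sign of the median was the same against each site (-0.64, -0.45 and -0.77) and, over the 17 members tested in those fits, without each antrum tumor (-1.17, -1.10 and -0.84). Leaving out antrum 3 brought the number with an unadjusted p under 0.05 to 0.

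Taken site by site, the antrum differed from the greater curvature, lesser curvature and corpus in 0 called genes each by edgeR, with 342 (2.13%), 633 (3.95%) and 569 (3.55%) genes at an unadjusted p under 0.05. DESeq2 called 25 higher (0.147%) and 8 lower (0.0471%) against the greater curvature. Against the lesser curvature it called 44 higher (0.246%) and 151 lower (0.844%), and against the corpus 24 higher (0.131%) and 6 lower (0.0327%). These 3 comparisons share the antrum libraries. With a block for the replicate number, edgeR called 6 genes lower against the lesser curvature, which were Fam25c, Flg, Irx2, Krt1, Lor and Serpinb12. For that pair of sites the same-numbered tumors deviated together from their site means (r = 0.67, 0.639 and 0.4), which was not so for the greater curvature (0.654, 0.697 and -0.177) or the corpus (-0.57, -0.304 and -0.302). Without lesser curvature 1, edgeR called 5 genes lower against that site, and they were Flg, Krt10, Lor, Serpinb12 and Krt1, all of squamous epithelium. Without antrum 1 it called 2 higher and 1 lower against all sites (Pnoc, Cybrd1 and Irx5), and without corpus 2 it called 1 higher, the pseudogene Rpl34-ps1, whose reads may be shared with its parent gene.

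Growth and immune genes did not separate the antrum tumors. Mki67, a protein of dividing cells, had 634, 415 and 436 CPM against 203 to 722 CPM (0.10, SE 0.34). The medians were 0.10 over 23 mitosis genes, 0.07 over 29 DNA replication genes and 0.03 over 22 Myc targets of ribosome production, and in each list 0 genes reached an unadjusted p under 0.05. All 14 antigen presentation genes had negative fold changes (median -0.59), none with an unadjusted p under 0.05. That median was 0.37 against the lesser curvature and -1.59 against the corpus, and went from -0.14 without antrum 1 to -2.11 without antrum 2. Of 12 tested neutrophil genes 9 were negative (median -0.43), with medians of -1.13, -1.02 and 0.87 against the greater curvature, lesser curvature and corpus. Mmp12, the macrophage elastase, had 4.98, 19.2 and 15.9 CPM against 10.3 to 42.3 CPM (-1.08, SE 0.43). Of 15 tested matrix metalloproteinases it was the 1 with an unadjusted p under 0.05, beside 1.11% of all genes lower. The median of that list was -0.05. Chief cell genes were negative in 7 of 7 (median -0.90), with 0 at an unadjusted p under 0.05. Against the lesser curvature 6 of the 7 were positive (median 0.91), against the corpus the median was -1.90, and without antrum 2 the median against all sites was -2.04. Their summed level was 655, 5921 and 2817 CPM in the antrum tumors and 11.8 CPM in lesser curvature 1 to 103300 CPM in corpus 1. Serpina1a, a protease inhibitor made by liver, had 0.262, 0.852 and 0.231 CPM against 0.373 to 38.6 CPM (-4.40, SE 1.57, DESeq2 adjusted p = 0.0409).

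**Figure D5:**
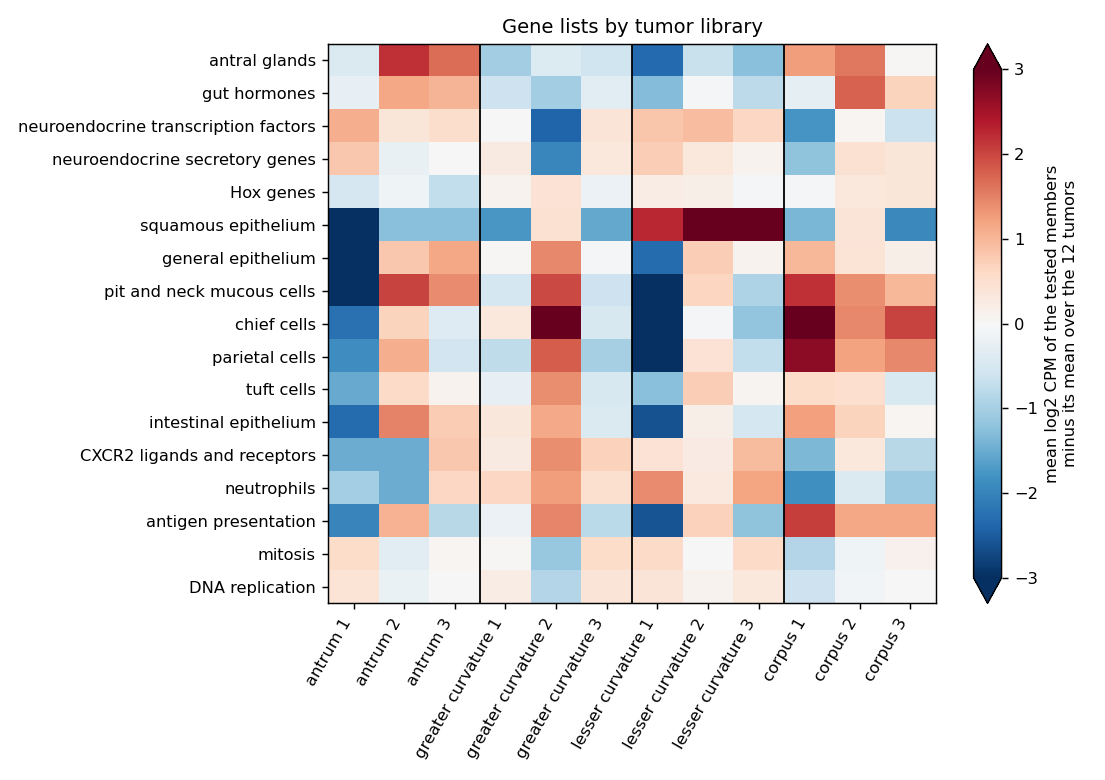
Mean log2 CPM of the tested members of 17 gene lists in each tumor library, minus the mean of the list over the 12 tumors (color scale ends at -3 and 3). Antrum 1 is below the mean of all tumors in every epithelial list, antrum 2 and 3 are above it in the antral gland list, and the squamous list is highest in the 3 lesser curvature tumors.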

How the data were processed

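Bulk RNA-seq (paired-end, 100 bp, per the labels' protocols) of 15 samples was used, 12 of them in the fit. Per the submitters' processing notes, bcl2fastq 2.19, kallisto 0.44.0, sleuth, DESeq2 and GRCm38.p6 were used, with no role or order given. The authors deposited estimated counts for 36144 genes, as whole numbers, and a table named for FPKM whose columns each sum to 1e+06 and was read as TPM. Its group line gives antrum and corpus 1 shared code, where the labels and count table separate them. Columns were matched to samples by the labels.

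Genes passing filterByExpr (minimum count 10) were fitted with edgeR 4.0.16 (TMM, robust quasi-likelihood) in R 4.3.3, with Benjamini-Hochberg adjusted p under 0.05 as the threshold. limma 3.58.1 used log2(TPM + 1) or log2(TPM + 0.1) for genes whose TPM reached 1 in at least 3 samples, and DESeq2 was version 1.42.0. The fit was run on simulated counts as a check of the code. The share of true differences it finds at the spread of these tumors is not given here. No pair of libraries was identical (highest r 0.971). Coordinates are from GENCODE M21, which holds 99.3% of the symbols, and 26 symbols had been turned into dates. Floors cover counting error only.

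The members and the 45 lists were chosen with earlier results of these data known. Named genes were 18 fixed ones, up to 6 per direction with the smallest p among genes at 10 CPM or more whose groups did not overlap (none was called by edgeR), and up to 3 per list with the smallest p. Of these, 2 are not reported here. Other settings are given in the closing section. The replicate numbers were checked for pairing by correlating deviations from site means across genes. Among the antrum comparisons, all same-numbered pairs had a positive r only with the lesser curvature (0.67, 0.639 and 0.4). This does not show that those tumors are paired, since deviations from a mean of 3 tumors depend on each other. Differently numbered pairs ran from -0.736 (antrum 1 with greater curvature 2) to 0.57 (antrum 2 with corpus 1). No batch is named in the labels.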

Additional observations from a re-analysis of the deposited data

How the results depend on the processing

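Each count and gene was recomputed with DESeq2 size factors, DESeq2, no filter on low counts, a replicate block, all 15 samples in the fit, limma on log2 of TPM plus 1 or 0.1, a test against a 1.5-fold change, each tumor left out, greater curvature 2 and corpus 1 left out together, and the other 9 tumors as 1 group. The counts of called genes moved from 0 as follows, and the cause was not tested. With DESeq2 they were 22 higher and 13 lower against the other sites, and 33, 195 and 30 against the greater curvature, lesser curvature and corpus. With limma on log2 of TPM plus 1 they were 1 lower against the other sites and 97 against the lesser curvature, and with TPM plus 0.1 they were 89 against the lesser curvature. With the replicate block 6 were called against the lesser curvature (Fam25c, Flg, Irx2, Krt1, Lor and Serpinb12) and 0 in the other comparisons. Leaving out 1 tumor gave 0 to 2 higher and 0 to 1 lower, 0 to 0 against the greater curvature, 0 to 5 against the lesser curvature and 0 to 1 against the corpus. Over all sites the replicate numbers were not treated as pairing the samples, as 9 of 18 same-numbered pairs had a correlation of deviations over 0.1 (range -0.57 to 0.697) and 7 of 12 tumors correlated best with their own number. Within antrum and lesser curvature all 3 pairs were over 0.1, which does not show that those tumors are paired.

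Of 58 genes tracked, 53 kept their sign under every one of up to 22 alternatives. The log2 fold change of Chga became -0.60 with the replicate block, -0.31 with limma on TPM plus 1 and on TPM plus 0.1, -0.26 without greater curvature 2 and corpus 1, and -0.091 with the other sites as 1 group, and it ran from -1.91 to 0.62 over single tumors left out. Onecut2 became 0.012 with no filter and 0.0027 with the replicate block (-0.30 to 0.16 over single tumors left out). Epcam became -0.14 with the replicate block, -0.58 and -0.61 with limma (-0.33 to 0.71). Mki67 became -0.026 without greater curvature 2 and corpus 1 (-0.12 to 0.25), and Myc ran from -0.063 to 0.64. With 3 tumors a site, genes at a few CPM and those that differ between antrum tumors are the least certain.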

Other observations

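Calcr, the calcitonin receptor, was chosen after its values were seen. It had 0.852, 41.8 and 215 CPM in antrum 1, 2 and 3 and 96.1, 0 and 44.8 CPM in lesser curvature 1, 2 and 3. It was at most 0.598 CPM in every tumor of the greater curvature and corpus and 0.534 CPM in the normals. The log2 fold change against all other sites was 6.20 (SE 1.47, edgeR adjusted p = 1), and against the lesser curvature alone it was 0.87.

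Because Zdbf2, Plagl1 and Dlk1 are imprinted, 3 further genes tied to imprinting were read after the values were seen. Zfp57, a zinc finger factor that maintains imprints, had 5.31, 4.69 and 6.92 CPM in the antrum tumors against 2.09 to 4.91 CPM elsewhere (0.85, SE 0.24, DESeq2 adjusted p = 0.0468). The paternally expressed Peg10 had 397, 472 and 669 CPM and Peg3 had 634, 470 and 538 CPM. Both overlapped the other sites, where Peg10 ran from 8.12 to 2869 CPM and Peg3 from 56.4 to 1156 CPM.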
